A study of Mus musculus with 106 samples.

Results

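A set of 10 genes linked to alternative activation of macrophages were read in histone mark peak lists from the bone marrow cells and bone marrow-derived macrophages (BMDMs) of control and diabetic mice. They were chosen by name as Arg1, Arg2, Chil3, Retnla, Mrc1, Mgl2, Clec10a, Pdcd1lg2, Il4ra and Tgm2, and all 10 of the 21938 protein-coding genes read were found in the annotation. Of these, 8 had an H3K27ac peak at the promoter in at least 1 list, and Chil3 and Retnla had none in any list of either mark. On GRCm38 the genes lie at chr10:24915221-24927484 (Arg1), chr12:79130777-79156301 (Arg2), chr3:106147554-106167564 (Chil3), chr16:48842551-48844461 (Retnla), chr2:14229392-14332057 (Mrc1), chr11:70130329-70137550 (Mgl2), chr11:70156197-70170834 (Clec10a), chr19:29410919-29471161 (Pdcd1lg2), chr7:125552120-125579474 (Il4ra) and chr2:158116402-158146436 (Tgm2). Mgl2 and Clec10a are neighbours, and their distal windows share peaks.

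Macrophages that meet interleukin-4 (IL-4) or interleukin-13 take on an alternatively activated, tissue-reparative state, often called M2. The cytokines bind a receptor chain encoded by Il4ra, the kinases of that receptor phosphorylate the transcription factor STAT6, and STAT6 binds near the genes of the state. Those genes encode enzymes that divert arginine (Arg1), secreted proteins (Chil3, Retnla) and surface lectins (Mrc1, Mgl2, Clec10a), and Arg1 is also found in other myeloid states. Lipopolysaccharide (LPS) with interferon-γ (IFN-γ) drives the opposing proinflammatory state, and no sample here was given IL-4. Acetylation of lysine 27 of histone H3 (H3K27ac) marks active promoters and enhancers, and trimethylation of lysine 4 (H3K4me3) marks promoters.

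All mice were wild-type C57BL/6J. They were 12 to 14 weeks old when assigned to a group. Diabetic mice received streptozotocin, which destroys the insulin-producing cells of the pancreas, at 42 to 45 mg/kg/day for 5 days, and were used 6 weeks after the last injection with a non-fasted glucose above 13.9 mmol/L. The hematopoietic stem cell (HSC) samples were bone marrow depleted with a kit of cells that carry CD3, CD4, B220, Ter119 or Gr1, so they were enriched and not sorted. BMDMs had grown for 7 days in medium with 5 mmol/L glucose and L929-conditioned medium, and then received medium only or LPS at 100 ng/mL with IFN-γ at 10 ng/mL for 16 h. For each mark there were 6 control and 6 diabetic HSC lists, 6 control and 5 diabetic lists of unstimulated BMDMs, and 6 and 6 lists of LPS+IFN-γ BMDMs, which gives 35 lists per mark and 70 in all. The labels number the libraries but do not say whether each came from its own mouse, so the p-values below measure the spread between these samples, which may be technical.

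The files hold peaks and no read counts, so a gene was read by its rank within each list. In every list, each gene took the highest −log10 p among the peaks within 1 kb of any of its start sites. This was turned into a percentile among all protein-coding genes, where 0 means no peak and 100 the top gene. Genes with a peak rank above all genes without, so their percentiles start near the share of genes with no peak. In the median list 67.8% of genes had a promoter peak for H3K27ac and 71.5% for H3K4me3. A distal H3K27ac percentile was made in the same way from the peaks over the gene body and 20 kb to either side that touched no promoter. Longer genes have wider distal windows, and this was not corrected for. The gene bodies run from 1911 bp for Retnla to 102666 bp for Mrc1. A difference below is a difference of mean percentiles in percentile points, so it cannot tell more cells with the mark from more mark per cell, nor show a change shared by all genes.

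H3K27ac lists held 51162 to 176559 peaks and H3K4me3 lists 13730 to 277213. The shortest, from diabetic HSC replicate 6, held no Il4ra H3K4me3 peak. The label of the HSC samples was read against marker genes, whose median H3K27ac percentile was taken in each list. The 8 stem and progenitor markers lay between 50.1 and 59.7 in control HSC lists and between 21.4 and 50.1 in control unstimulated BMDM lists. The 8 macrophage markers lay between 0 and 41.5 and between 41.2 and 53.4 in the same groups, so they were marked in many HSC lists too. In diabetic mice they lay between 0 and 40.9 (median 35.7) in HSC and between 26.3 and 41.9 (median 27) in unstimulated BMDM lists, so in H3K27ac these lists did not separate. The 4 erythroid markers lay between 47.3 and 62.3 in control HSC lists against 20.2 to 24.5 in control unstimulated BMDM lists. Medians of the B lymphoid, T lymphoid and neutrophil markers were 39, 35.4 and 19.9 against 28.6, 7.77 and 16. In H3K4me3 the stem and progenitor markers lay between 57.4 and 78.4 in control HSC lists. In control unstimulated BMDM lists they lay between 63.5 and 79.9, so they did not separate. The macrophage markers in H3K4me3 lay between 0 and 18.7 and between 13.5 and 52.7. The part of other marrow cells in the differences between HSCs and BMDMs was not tested. The stimulation label was read on 13 response genes such as Nos2 and Gbp5, whose mean H3K27ac percentile was 18.7 to 39.3 in unstimulated and 24.8 to 49.0 in LPS+IFN-γ lists. The lowest LPS+IFN-γ list was control replicate 5 at 24.8, and diabetic replicate 5 lay next to it at 25. The highest unstimulated list was control replicate 1 at 39.3. In H3K4me3 diabetic replicates 5 and 6 were the lowest LPS+IFN-γ lists, at 16.2 and 17.3. An earlier analysis of these data had doubted control LPS+IFN-γ replicate 5 together with control unstimulated replicates 5 and 6. The H3K4me3 means of these unstimulated replicates, 28.0 and 25.8, were the highest of the unstimulated lists. Each call among the 10 genes that rests on these 3 libraries is therefore given with and without them, and the pathway counts likewise. The other lists named here were not left out as a set. The earlier analysis had also doubted the scaling of 4 H3K4me3 libraries. These were control LPS+IFN-γ replicate 6, diabetic LPS+IFN-γ replicates 1 and 2 and control unstimulated replicate 6.

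Promoter sequence, as RefSeq gives it on GRCm38.p6 from 250 bases before to 50 bases after a gene's start, was matched by symbol for 6 of the 10 genes, the others being Arg1, Arg2, Clec10a and Tgm2. Each of the 6 was identical to the genome. Those of Chil3 (chr3:106167515-106167814, minus strand), Retnla (chr16:48842359-48842658, plus strand) and Pdcd1lg2 (chr19:29410669-29410968, plus strand) are shown because no list of either mark had a peak within 1 kb of these first starts. Capitals mark the letters TTC and GAA set 3 or 4 bases apart, the spacings bound by STAT factors, the wider one being that of STAT6. The promoter of Il4ra (chr7:125552021-125552320, plus strand) is shown as the contrast, since every H3K27ac list had a peak there, and its capitals mark CG.
Chil3 promoter: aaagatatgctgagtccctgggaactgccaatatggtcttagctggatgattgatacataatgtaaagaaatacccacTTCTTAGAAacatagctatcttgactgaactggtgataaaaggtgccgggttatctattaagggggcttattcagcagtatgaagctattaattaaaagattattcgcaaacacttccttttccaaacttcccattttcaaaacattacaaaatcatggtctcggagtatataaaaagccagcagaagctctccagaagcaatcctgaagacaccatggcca
Retnla promoter: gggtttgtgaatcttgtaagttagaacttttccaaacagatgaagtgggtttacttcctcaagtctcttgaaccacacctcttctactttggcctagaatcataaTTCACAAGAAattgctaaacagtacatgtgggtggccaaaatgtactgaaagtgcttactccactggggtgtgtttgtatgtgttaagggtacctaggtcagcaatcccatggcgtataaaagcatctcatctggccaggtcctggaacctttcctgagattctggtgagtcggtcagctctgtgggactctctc
Pdcd1lg2 promoter: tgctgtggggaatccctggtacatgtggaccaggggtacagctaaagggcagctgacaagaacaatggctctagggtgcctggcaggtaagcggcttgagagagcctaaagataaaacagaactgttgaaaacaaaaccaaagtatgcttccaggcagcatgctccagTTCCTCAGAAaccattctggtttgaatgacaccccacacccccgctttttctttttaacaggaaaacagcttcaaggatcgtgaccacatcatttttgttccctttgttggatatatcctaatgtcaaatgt
Il4ra promoter: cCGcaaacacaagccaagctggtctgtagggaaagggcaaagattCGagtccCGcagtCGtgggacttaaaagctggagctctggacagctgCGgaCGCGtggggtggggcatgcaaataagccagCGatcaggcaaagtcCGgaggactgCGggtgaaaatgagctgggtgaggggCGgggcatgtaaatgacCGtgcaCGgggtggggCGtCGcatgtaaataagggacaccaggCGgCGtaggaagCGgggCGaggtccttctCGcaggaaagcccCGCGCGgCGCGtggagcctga

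The Il4ra window held 25 CG pairs, more than 81.6% of the 32851 promoters in the table. Mgl2 held 8, Chil3, Mrc1 and Pdcd1lg2 held 3 each and Retnla held 2. TTC-N4-GAA was found in 2 of the 6 windows, those of Retnla and Pdcd1lg2, and in 6.95% of all promoters. TTC-N3-GAA was found in 1, that of Chil3, and in 8.3% of all promoters. Both motifs read the same on either strand. GAGGAA, the core bound by PU.1, a factor that macrophages need, was found on either strand in 4 of the 6 and in 28.3% of all promoters. A match describes these letters only.

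Occupancy split the 10 genes. Il4ra, Tgm2 (a transglutaminase that crosslinks proteins) and Arg2 (the mitochondrial arginase) had a promoter H3K27ac peak in 35 of 35 lists, and an H3K4me3 peak in 34, 35 and 34. Arg1, the cytosolic arginase, had one in 30 and 18 lists, Clec10a in 28 and 21, and Mrc1, the mannose receptor, in 23 and 6. Mgl2 had a promoter peak in 10 and 8 lists, and Pdcd1lg2, which encodes the PD-1 ligand PD-L2, in 9 and 3. Where present, the H3K27ac peaks of Arg1, Mrc1, Mgl2, Clec10a and Pdcd1lg2 sat at median percentiles of 37.0 to 42.5. These ranks are low among genes with a peak. The medians over all lists were 86.7 for Il4ra, 75.7 for Tgm2 and 47.6 for Arg2. For Clec10a all of these peaks lay at inner starts 10.4 to 13.3 kb from the first start, and for Pdcd1lg2 at the inner start 11.1 kb away, so neither gene had a peak at its first start in any list. The map of percentiles by list shows the split.

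**Figure D1:**
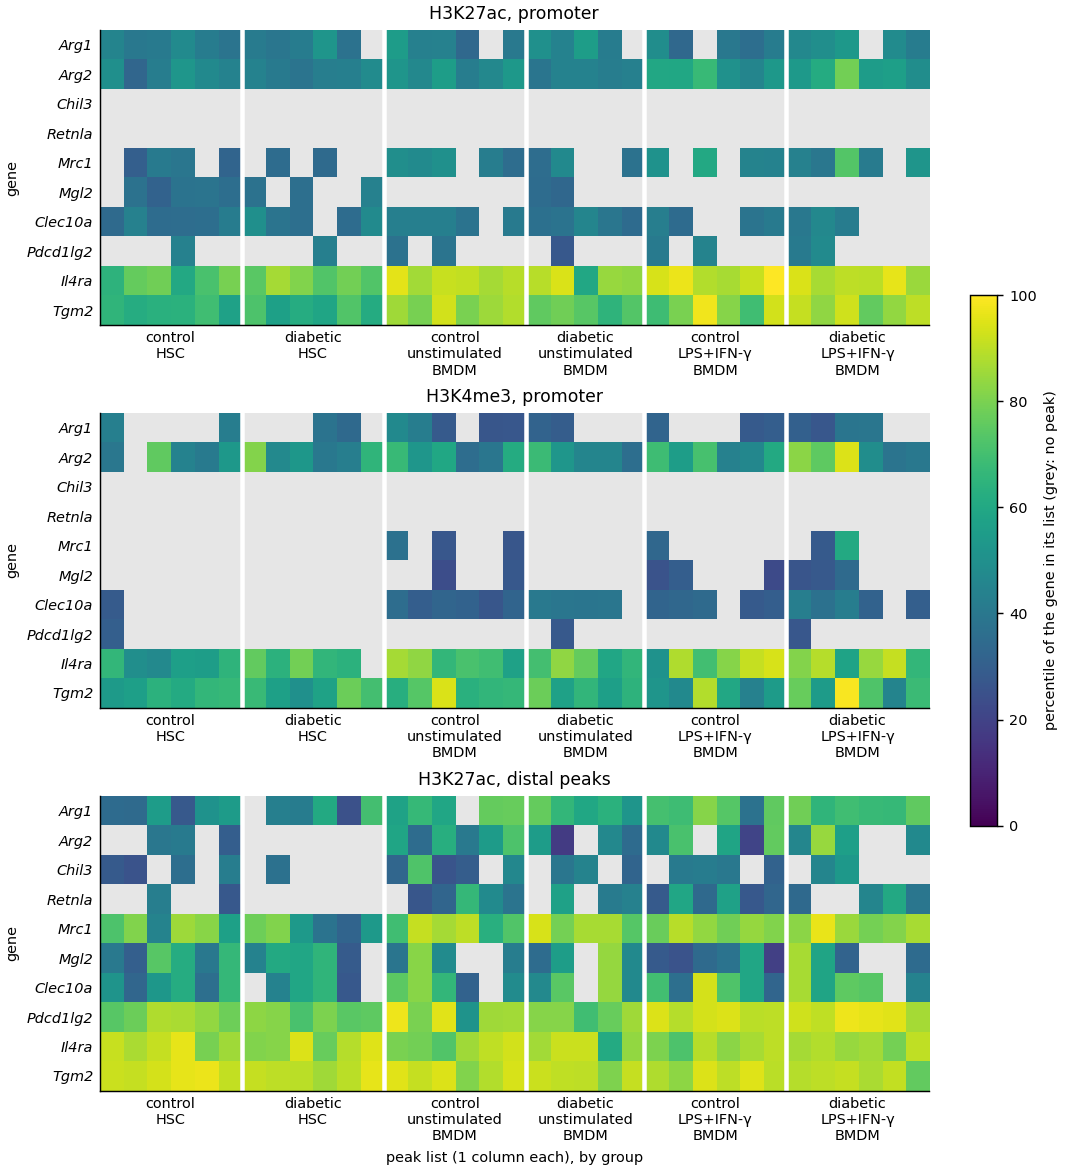
Percentile (0 to 100) of each of the 10 genes in each H3K27ac and H3K4me3 list, ordered by group, for the promoter in both marks and for distal H3K27ac and grey means no peak. Il4ra, Tgm2 and Arg2 were marked at the promoter in nearly every list, and Chil3 and Retnla in none. Distal H3K27ac was high for Pdcd1lg2, Mrc1, Il4ra and Tgm2, the longest of the 10 genes, which have the widest distal windows.

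Between unstimulated BMDMs and HSCs, 4 of 26 promoter tests of the genes were called at an adjusted p under 0.05, with limma across all genes and Benjamini-Hochberg adjustment. All 4 were in control mice: 3 in H3K27ac, where 12.4% of all genes tested were called, and 1 in H3K4me3, where 7.72% were. In diabetic mice none of the genes was called, beside 14% of all genes in H3K27ac and 0% in H3K4me3. In diabetic H3K4me3 limma called 0 of 16363 genes, 2276 had an unadjusted p under 0.05, and an exact permutation test also called 0. In control H3K4me3 the exact permutation test called 0 of 16917 genes as well (smallest adjusted p = 0.0781). The 8 genes tested in control H3K27ac had a median difference of 4.98 against -0.777 over all genes. The genes of the list are not replicates of each other.

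Tgm2 and Il4ra were higher in BMDMs. The Tgm2 promoter sat at H3K27ac percentiles of 65.3, 62.1, 63.6, 64, 69.2 and 57.1 in control HSCs and of 85.7, 79.5, 93.1, 79.8, 85.3 and 88.5 in control unstimulated BMDMs. The groups did not overlap, and the means were 63.5 ± 3.99 and 85.3 ± 5.21 (SD, n = 6 and 6), a difference of 21.8 (SE 3.26, limma adjusted p = 0.000407). Il4ra, the chain that binds IL-4, read 64.8, 76.5, 78.3, 60.3, 71.2 and 79.5 in control HSCs and 95.9, 86.1, 91.5, 91.0, 86.4 and 89.3 in control unstimulated BMDMs. Here too every BMDM list lay above every HSC list, with means of 71.8 ± 7.82 and 90.0 ± 3.66 and a difference of 18.3 (SE 3.53, limma adjusted p = 0.00313). The exact 2-sided permutation test gave both genes 0.00216, the smallest p that 924 arrangements allow, with an adjusted p of 0.0325. Without the 3 doubted control libraries the differences were 21 (limma adjusted p = 0.00362) for Tgm2 and 19.3 (limma adjusted p = 0.00983) for Il4ra.

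In diabetic mice the same differences were 9.27 (95% interval 1.09 to 17.5, limma adjusted p = 0.123) for Tgm2 and 4.49 (95% interval -6.21 to 15.2, limma adjusted p = 0.59) for Il4ra, and neither was called. Diabetic unstimulated BMDMs read 75.7, 78.2, 74.2, 64.9 and 73.4 for Tgm2, and 89.3, 94.3, 60.1, 84.6 and 83.3 for Il4ra. The lists of diabetic HSCs spanned 56.8 to 72.8 and 72.7 to 86.7. The median macrophage marker percentile went from 34.1 in HSC to 46.1 in unstimulated BMDM lists of control mice but from 35.7 to 27 in diabetic mice, and its part in these results was not tested. H3K4me3 at Il4ra differed by 15.8 in control mice (limma adjusted p = 0.139) and was not called.

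Mgl2 went the other way. Its promoter had H3K27ac in 5 of 6 control HSC lists, at 0, 37.7, 31.4, 37.9, 38.3 and 36.2, and in 0 of 6 control unstimulated BMDM lists. The difference was -30.2 (SE 8.25, limma adjusted p = 0.0239, exact permutation adjusted p = 0.0926). The Mgl2 peaks ranked low among genes with a peak, so this difference reflects their presence or absence. These promoter peaks lay at different starts. Of the 10 H3K27ac lists with one, 5 had it only at inner starts 3.77 to 3.84 kb from the first start. In diabetic mice 3 of 6 HSC lists and 2 of 5 unstimulated BMDM lists had a promoter peak. The difference there was -5.94 (limma adjusted p = 0.781), and none of the 12 LPS+IFN-γ lists had one. The control call was lost when any of control HSC replicates 2, 3, 4, 5 or 6 was left out (limma adjusted p up to 0.0692), with promoters of 500 bases to either side (limma adjusted p = 0.293) and without the doubted libraries (difference -30.2, limma adjusted p = 0.0579). An H3K4me3 promoter peak of Mgl2 was in 0 of 12 HSC lists, 2 of 11 unstimulated and 6 of 12 LPS+IFN-γ lists. Too few lists held one for a test between HSCs and BMDMs, and in 6 of these 8 lists it lay only at the inner starts.

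Clec10a, the neighbouring lectin gene, was higher in H3K4me3 in BMDMs. A promoter peak was in 1 of 6 control HSC lists, replicate 1 at 28.6, and in all 6 control unstimulated BMDM lists, at 35.7, 29.9, 32.5, 31.6, 26.8 and 32.3. The difference was 26.7 (SE 6.93, limma adjusted p = 0.0257, exact permutation adjusted p = 0.0945). The position varied: a site 9.85 kb from the first start was held by 3 of the 6 control unstimulated lists, and one at 13.4 kb by 3 of 6. Where present, Clec10a peaks ranked low among genes with a peak, so the difference reflects their presence or absence. In diabetic mice a promoter peak was in 0 of 6 HSC lists and 4 of 5 unstimulated BMDM lists. That difference of 31.5 was not called (limma adjusted p = 0.227). The length of the lists moved in the same direction in control mice: the median H3K4me3 list held 49624 peaks for HSCs and 161117 for unstimulated BMDMs. With list length as a covariate the Clec10a difference was 11.7 (limma adjusted p = 0.956), and the call was also lost without control HSC replicate 2, without control unstimulated replicate 3 and without the 3 doubted libraries (difference 27.6, limma adjusted p = 0.114). Of the 4 libraries of doubted scaling, control unstimulated replicate 6 enters this comparison, and without it the call was lost as well (difference 26.5, limma adjusted p = 0.061). It was not made with rank on fold (limma adjusted p = 0.06) or with a shared middle rank for genes with no peak (difference 11.8, limma adjusted p = 0.0846). H3K27ac at Clec10a was in 11 of 12 HSC lists and differed by -3.01 in control mice (limma adjusted p = 0.808).

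**Figure D2:**
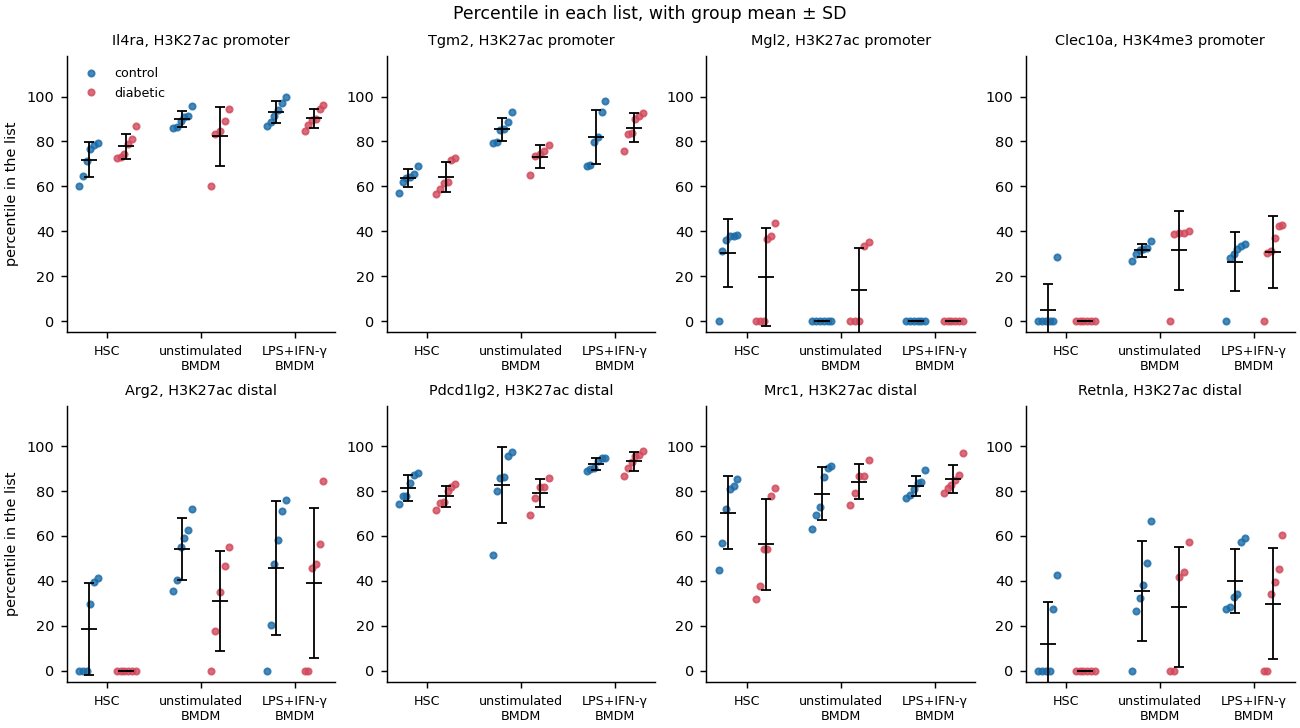
Percentile (0 to 100) in each list for Il4ra, Tgm2 and Mgl2 (H3K27ac promoter), Clec10a (H3K4me3 promoter) and Arg2, Pdcd1lg2, Mrc1 and Retnla (distal H3K27ac), in HSCs, unstimulated and LPS+IFN-γ BMDMs. Points are lists (blue control, red diabetic), and bars are the mean ± SD. All 6 control unstimulated lists lay above all 6 control HSC lists for Il4ra and Tgm2, and all 6 diabetic LPS+IFN-γ lists above all 5 diabetic unstimulated lists for distal Pdcd1lg2.

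The remaining promoters were not called between the cell states. Arg1 was marked with H3K27ac in 11 of 12 HSC lists, and its differences were -6.33 in control and 2.94 in diabetic mice (limma adjusted p = 0.599 and 0.878). The position of the peak varied. A site at -0.854 kb from the start was held by 11 of 12 HSC lists, 4 of 11 unstimulated and 7 of 12 LPS+IFN-γ lists, and a site at 0.256 kb by 0, 4 and 6. Arg2 sat at a median of 43.7 in HSCs and 44.5 in unstimulated BMDMs. The Mrc1 promoter had H3K27ac in 6 of 12 HSC and 8 of 11 unstimulated BMDM lists, with differences of 13.8 and 12.4 (limma adjusted p = 0.366 and 0.508).

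Away from the promoters, 2 of 20 distal H3K27ac tests were called between unstimulated BMDMs and HSCs, beside 15.4% of all genes in control and 15.5% in diabetic mice. Both were Arg2. Its distal percentile was 0, 0, 39.6, 41.2, 0 and 29.9 in control HSCs and 58.9, 35.3, 62.8, 40.4, 55.0 and 71.9 in control unstimulated BMDMs, a difference of 35.6 (SE 10.5, limma adjusted p = 0.0276). In diabetic mice all 6 HSC lists were at 0 and the BMDM lists read 55.2, 17.5, 0, 46.5 and 35, a difference of 30.8 (SE 10.0, limma adjusted p = 0.0478). In both disease groups the ranges of the cell states touched or overlapped, and the exact permutation test gave adjusted p = 0.0736 and 0.0831. The control call was lost without control HSC replicates 1, 2 or 5 or control unstimulated replicates 3 or 6 (limma adjusted p up to 0.0668), and without the 3 doubted libraries (difference 30.9, limma adjusted p = 0.0919). The diabetic call held in 1 of 11 fits that left out a library, the one without diabetic unstimulated replicate 4, and was lost without any other HSC or BMDM library (limma adjusted p up to 0.114).

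The peak behind most of these values lay 4.11 kb into Arg2, in an intron. It was held by 1 of 12 HSC lists, 7 of 11 unstimulated and 8 of 12 LPS+IFN-γ BMDM lists, and was the highest distal peak of the gene in 6 and in 6 of the BMDM lists. Mrc1 narrowly missed the threshold in diabetic mice, with HSC lists at 78.0, 81.2, 54.1, 37.9, 32.1 and 54.1 and unstimulated BMDM lists at 93.8, 79.2, 86.9, 86.8 and 73.6. The difference was 27.8 (SE 9.24, limma adjusted p = 0.0512), against 8.49 in control mice (limma adjusted p = 0.458). Over the 10 genes the median distal difference was 17.5 in diabetic mice, beside 2.12 over all genes tested, and 4.9 in control mice, beside -0.0874.

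Retnla, which encodes the secreted protein RELMα, and Chil3, which encodes the chitinase-like protein Ym1, had distal peaks without promoter peaks. All 20 lists with a distal H3K27ac peak at Retnla had their highest one within 1 kb of a site 13.7 kb past the start, between genes, in 2 of 12 HSC, 8 of 11 unstimulated and 10 of 12 LPS+IFN-γ lists. The site itself was covered in 0, 7 and 10 of them. The differences between unstimulated BMDMs and HSCs were 23.7 and 28.5 in control and diabetic mice (limma adjusted p = 0.163 and 0.0871) and were not called. H3K4me3 was called next to it, at 13.3 kb, in 32 of 35 lists: 10 of 12 HSC, 11 of 11 unstimulated and 11 of 12 LPS+IFN-γ lists. The H3K27ac site at 13.7 kb was held by few HSC lists and most BMDM lists. So were one 7.08 kb before Mrc1 (3 of 12 HSC, 10 of 11 unstimulated and 11 of 12 LPS+IFN-γ lists) and one 67.4 kb past the start of Pdcd1lg2 (0, 10 and 10 lists). They are shown as 300 bases around the site, from the RefSeq GRCm38.p6 genome. All 3 are at least 50% soft-masked. Other sites with such counts ran from 0% (33.6 kb at Clec10a) to 100% (59.0 kb at Mrc1). Capitals mark the bases that the reference soft-masks as repeats or low-complexity sequence. Their places are chr16:48856074-48856373, chr2:14222165-14222464 and chr19:29478128-29478427, on the plus strand.
Retnla, 13.7 kb: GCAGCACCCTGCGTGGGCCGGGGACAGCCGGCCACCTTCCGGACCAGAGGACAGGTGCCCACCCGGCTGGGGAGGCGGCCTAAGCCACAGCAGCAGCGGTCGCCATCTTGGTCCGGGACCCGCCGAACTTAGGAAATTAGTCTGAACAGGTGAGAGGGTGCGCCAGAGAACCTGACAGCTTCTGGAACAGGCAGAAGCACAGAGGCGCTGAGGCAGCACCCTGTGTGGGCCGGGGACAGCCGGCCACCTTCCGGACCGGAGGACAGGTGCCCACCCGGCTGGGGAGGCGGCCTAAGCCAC
Mrc1, -7.08 kb: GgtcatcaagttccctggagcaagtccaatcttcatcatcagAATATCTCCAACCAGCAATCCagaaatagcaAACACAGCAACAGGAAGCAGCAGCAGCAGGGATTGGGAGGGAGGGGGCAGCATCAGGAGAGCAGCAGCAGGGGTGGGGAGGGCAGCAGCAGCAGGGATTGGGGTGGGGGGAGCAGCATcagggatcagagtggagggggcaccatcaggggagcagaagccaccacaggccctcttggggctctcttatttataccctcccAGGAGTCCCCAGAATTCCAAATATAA
Pdcd1lg2, 67.4 kb: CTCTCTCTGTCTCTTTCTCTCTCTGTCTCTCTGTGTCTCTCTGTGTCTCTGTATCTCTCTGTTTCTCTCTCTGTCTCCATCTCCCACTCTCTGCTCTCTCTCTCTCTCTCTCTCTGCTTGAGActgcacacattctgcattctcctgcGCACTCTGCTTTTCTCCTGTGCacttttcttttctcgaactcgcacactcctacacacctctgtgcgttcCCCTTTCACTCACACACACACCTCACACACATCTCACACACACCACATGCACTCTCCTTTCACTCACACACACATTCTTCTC

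These windows were 100%, 55.3% and 75.7% masked, where 33.4% of all bases were masked on the 8 chromosomes of the genes. Of 115 distal H3K27ac sites held by at least 8 lists, 23 were at least 50% masked. Of the 12 sites held by at most 3 HSC lists and at least 12 BMDM lists, 5 were masked, and of the 17 sites held by at least 30 lists, 0 were. Single reads of 50 bases were mapped, and the part of repeats in the difference between cell states was not tested. The Arg2 site at 4.11 kb was 14.7% masked, a site 33.6 kb past the start of Clec10a (3, 7 and 11 lists) 0%, and the Arg1 site described next 15.7%.

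At Arg1 the distal sites lay past the 3′ end of the gene, within the neighbouring Med23. The most common, 17.9 kb from the Arg1 start in an intron of Med23, was held by 1 of 12 HSC lists, 7 of 11 unstimulated and 12 of 12 LPS+IFN-γ BMDM lists, and was the highest distal peak in 8 of the 12 LPS+IFN-γ lists. The distal percentile of Arg1 had a median of 42.6 in HSC, 63.9 in unstimulated and 69.8 in LPS+IFN-γ lists. It differed between unstimulated BMDMs and HSCs by 13 in control and 23.4 in diabetic mice (limma adjusted p = 0.48 and 0.203), and was not called. Distal peaks are assigned by position, and whether this one acts on Arg1 or on Med23 was not measured.

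Chil3 had scattered and low distal H3K27ac. No site was held by more than 9 of 35 lists, and the distal percentile was 0 in 16 lists and at most 72.4. Mrc1 held several intronic sites, one at 16.1 kb in 11, 9 and 12 lists of HSCs, unstimulated and LPS+IFN-γ BMDMs. One at 59.0 kb was in 2, 9 and 9 H3K27ac lists but in 11, 11 and 12 H3K4me3 lists, and its window was 100% masked. Il4ra and Tgm2 held sites in all 35 lists, at 29.1 kb and at 3.3 and 11.3 kb, and their distal percentiles had medians of 86.3 and 91.0. For these genes the distal differences between cell states were between -5.16 and -1.55 (limma adjusted p from 0.355 to 0.719), beside the promoter differences given above.

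**Figure D3:**
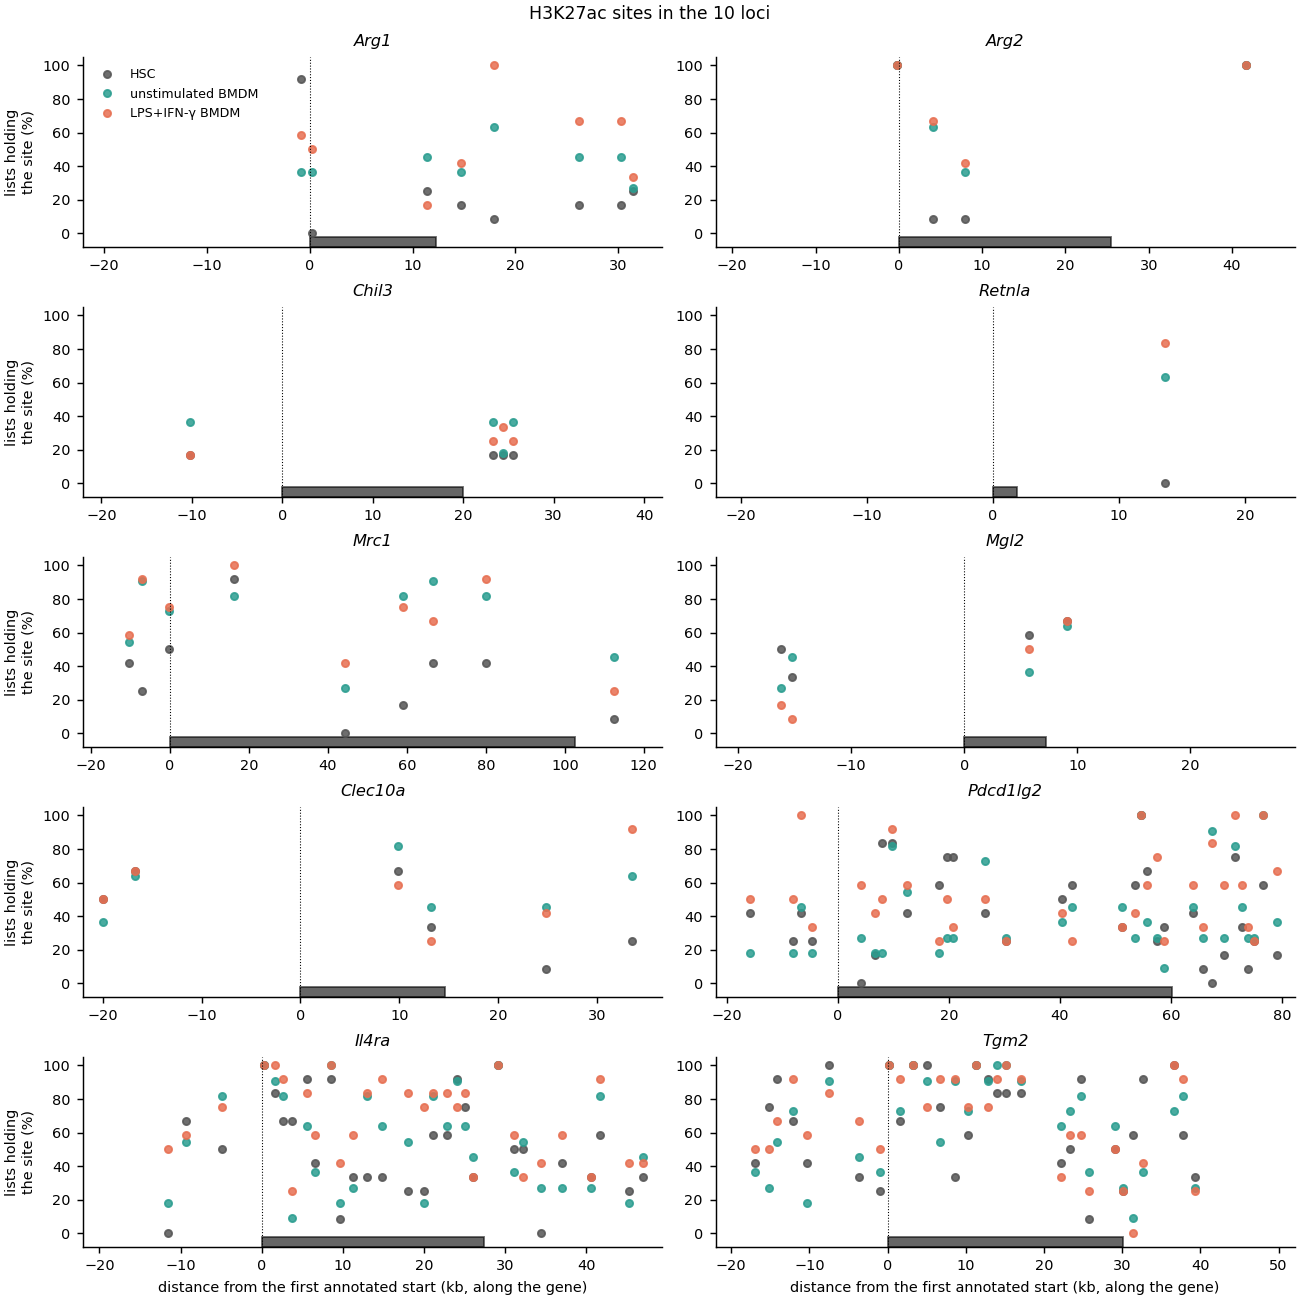
Share of lists (percent) holding each H3K27ac site against its distance (kb) from the first start of the gene, for HSCs (grey), unstimulated (green) and LPS+IFN-γ BMDMs (orange), with the gene body as a bar. Sites such as 13.7 kb at Retnla, 17.9 kb at Arg1 and 67.4 kb at Pdcd1lg2 were held by few HSC lists. Those at 29.1 kb at Il4ra and at 3.3 and 11.3 kb at Tgm2 were held by all lists of every state.

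With LPS+IFN-γ, 1 gene was called, at a distance from its promoter, and the call held in 2 of 9 alternative settings. Of 20 distal tests 1 was called, Pdcd1lg2 in diabetic mice, beside 0.943% of all genes there and 0% in control mice. Its lists read 81.9, 81.9, 69.4, 76.9 and 85.8 without and 92.9, 90.4, 97.6, 96.1, 95.4 and 86.5 with LPS+IFN-γ, and did not overlap. The means were 79.2 ± 6.32 (SD, n = 5) and 93.1 ± 4.14 (SD, n = 6), a difference of 13.9 (SE 3.35, limma adjusted p = 0.0498, exact permutation adjusted p = 0.16). In control mice the difference was 9.33 (95% interval -2.1 to 20.8, limma adjusted p = 0.998), from unstimulated lists at 97.5, 79.8, 95.6, 51.3, 85.9 and 86.2 to stimulated lists at 89.0 to 94.9. The difference between diabetic and control mice in this change was 4.61 (SE 7.01, limma adjusted p = 0.962). The diabetic call held in 2 of 11 fits that left out a library (limma adjusted p up to 0.129). Those were the fits without diabetic LPS+IFN-γ replicate 6 or diabetic unstimulated replicate 6, and the call was lost in each of the other 9. It was also lost with replicate number as a block in the fit (limma adjusted p = 0.198). The highest distal peak most often lay 76.6 kb past the start, beyond the end of the gene, in 6 unstimulated and 6 LPS+IFN-γ lists. A peak was there in 7 of 12 HSC, 11 of 11 unstimulated and 12 of 12 LPS+IFN-γ lists. The sequence of this site (chr19:29487341-29487640, plus strand, RefSeq GRCm38.p6 genome) is shown because it holds TTC-N4-GAA, in capitals, as did 7 of the 115 distal windows, and 0% of it was masked.
Pdcd1lg2, 76.6 kb: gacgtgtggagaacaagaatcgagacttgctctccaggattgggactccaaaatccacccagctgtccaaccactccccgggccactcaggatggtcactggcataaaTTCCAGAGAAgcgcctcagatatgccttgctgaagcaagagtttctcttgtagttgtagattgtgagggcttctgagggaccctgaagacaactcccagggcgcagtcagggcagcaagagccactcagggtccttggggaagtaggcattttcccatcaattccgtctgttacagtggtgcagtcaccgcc

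A site 6.63 kb before Pdcd1lg2 was held by 5 of 12 HSC lists, 5 of 11 unstimulated lists and 12 of 12 LPS+IFN-γ lists. This count is a description, chosen after its values were seen. At the promoters 0 of 27 tests of the genes were called for stimulation, beside 0.505% of all genes in H3K27ac in diabetic mice and 0% in the other 3 comparisons, where limma left 548 to 1022 genes with an unadjusted p under 0.05 and the exact permutation test called 0.

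Arg2 and Tgm2 came closest at the promoter, both in diabetic mice. Arg2 H3K27ac read 38.8, 44.3, 44.5, 42.4 and 43.4 without and 53.9, 61.6, 78.6, 55.1, 56.4 and 49.2 with LPS+IFN-γ. The groups did not overlap, and the difference was 16.4 (SE 5.0, limma adjusted p = 0.149), against 6.49 in control mice (limma adjusted p = 0.995). Tgm2 differed by 12.8 (SE 3.81, limma adjusted p = 0.141) in diabetic and by -3.4 in control mice (limma adjusted p = 0.995). The diabetic change minus the control change was 9.95 for Arg2 (limma adjusted p = 0.943) and 16.2 for Tgm2 (SE 6.22, limma adjusted p = 0.943), so neither was shown to differ between the disease groups. One fit over all 6 groups called Arg2 in diabetic mice (limma adjusted p = 0.0493). Il4ra H3K27ac was high in all BMDM groups, with means of 82.3 to 92.9, and changed by 2.92 and 8.05 in control and diabetic mice (limma adjusted p = 0.995 and 0.449).

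Between diabetic and control mice none of the genes was called, in 38 promoter and 29 distal tests over the 3 cell states. The background was 0% in each of these 9 comparisons: limma called 0 genes, 467 to 918 genes had an unadjusted p under 0.05, and the exact permutation test called 0. Tgm2 in unstimulated BMDMs was the 1 test of the genes with an unadjusted p under 0.05. Its 5 diabetic H3K27ac lists, at 64.9 to 78.2, lay below all 6 control lists, at 79.5 to 93.1, a difference of -12.0 (95% interval -19.7 to -4.35, limma unadjusted p = 0.00428 and adjusted p = 0.998, exact permutation adjusted p = 1). The unstimulated control lists enter this comparison, the stimulation comparison and the one with HSCs alike. In HSCs the Tgm2 difference was 0.469 (95% interval -6.76 to 7.7) and in LPS+IFN-γ BMDMs it was 4.2 (95% interval -6.19 to 14.6).

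Il4ra showed differences of 6.03 in HSCs, -7.72 in unstimulated and -2.59 in LPS+IFN-γ BMDMs between diabetic and control mice (limma adjusted p = 0.999, 0.998 and 0.988). The Arg2 distal percentile was different by -18.4 in HSCs and by -23.2 in unstimulated BMDMs, diabetic minus control, with 95% intervals of -38.6 to 1.74 and -48.8 to 2.32, and neither was called. Distal H3K27ac of the 9 genes tested in HSCs was below control in 9 of 9, by a median of -9.1 beside -1.88 over all genes, with 0 called and no unadjusted p under 0.05 among them. The share of all genes below control was not counted. Over the alternative settings and left-out libraries the difference reached 9.18 for Arg1, 5.26 for Mgl2 and 15.6 for Il4ra, and stayed below 0 for the other genes. Diabetic HSC lists were the shorter, with a median of 92673 H3K27ac peaks against 130591 in control. With list length as a covariate 0 of the genes were called as well, a count that does not show direction. Differences of effects, between the disease groups in stimulation and between HSCs and unstimulated BMDMs in disease, were called for 0 of 48 tests of the genes and 0% of all genes in each of 6 comparisons, where limma left 588 to 1068 genes with an unadjusted p under 0.05.

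**Figure D4:**
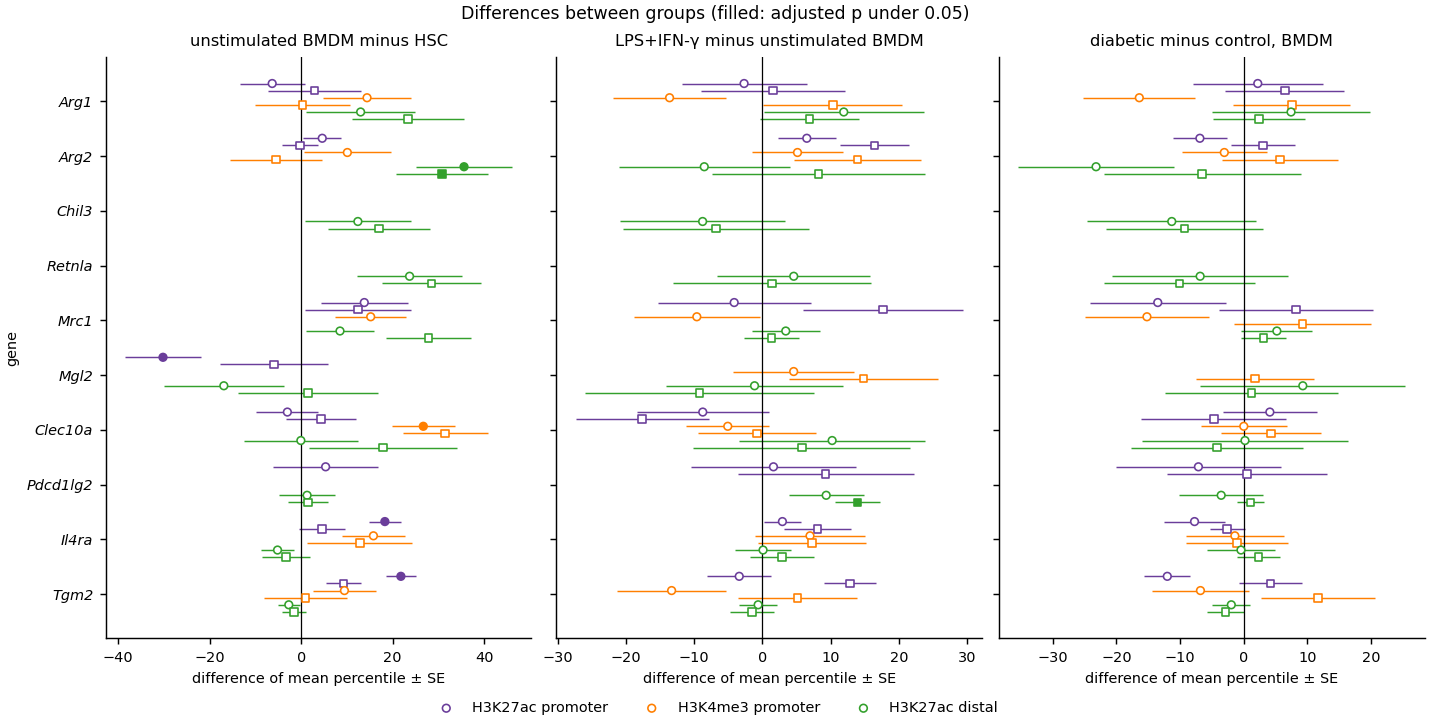
Difference of mean percentile (percentile points) ± SE for each gene, for unstimulated BMDM minus HSC and LPS+IFN-γ minus unstimulated BMDM (circles control, squares diabetic mice) and for diabetic minus control (circles unstimulated, squares LPS+IFN-γ BMDMs). Colours give the H3K27ac promoter, H3K4me3 promoter and distal H3K27ac, and filled symbols an adjusted p under 0.05. There are 6 filled symbols for cell state, 1 for stimulation and 0 for diabetes.

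The other genes of the pathway, a list of 25 that runs from the cytokines through the receptor chains, kinases and STAT6 to further targets and inhibitors, moved mostly with cell state. The genes named here were picked after their values were seen. In control mice 5 of the 24 tested were higher in unstimulated BMDMs than in HSCs by H3K27ac at the promoter and 3 were lower, beside 12.4% of all genes called. Pparg, a nuclear receptor that takes part in alternative activation, rose from 50.8 ± 4.78 to 89.4 ± 4.66 (SD, n = 6 and 6, limma adjusted p = 5.67e-06), and Klf4, a transcription factor induced by IL-4, from 73.1 ± 8.05 to 90.4 ± 4.6 (limma adjusted p = 0.00568). The others higher were Il13ra1, Cebpb and Socs1, and those lower were Il4, Il13 and Ccl17: 2 cytokines of T helper cells and a chemokine. Without the 3 doubted libraries again 5 were higher and 3 lower, but Il13 and Socs1 were no longer called (limma adjusted p = 0.0988 and 0.0995) and Cish (lower) and Ppargc1b (higher) were.

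In diabetic mice 3 of 22 were higher (Pparg, Ppargc1b and Klf4) and 2 lower (Il4 and Cish), beside 14% of all genes. H3K4me3 was higher for 3 of 22 in control mice (Irf4, Kdm6b and Ccl24), beside 7.72%, and for 0 of 20 in diabetic mice, beside 0%. The exact permutation test called 0 of 16917 genes in that control comparison (smallest adjusted p = 0.0781), and limma called none of the 3 without the 3 doubted libraries (limma adjusted p from 0.0557 to 0.195) or without the 4 of doubted scaling (limma adjusted p from 0.0558 to 0.0975).

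Distal H3K27ac was higher for Klf4 and lower for Cish and Ccl22, a chemokine, of 24 tested in control mice, beside 15.4% of all genes. Without the 3 doubted libraries Klf4 and Cish were not called (limma adjusted p = 0.0502 and 0.0984), Ccl22 was, and Pparg was called as higher. In diabetic mice it was higher for Stat6 and Pparg and lower for Il4, Il13, Socs1, Ccl17 and Ccl22 of 24, beside 15.5% of all genes. Il4 and Il13 are neighbours with the same distal values. Stat6 rose from 80.8 ± 6.41 to 92.7 ± 6.99 (SD, n = 6 and 5, limma adjusted p = 0.0419). With LPS+IFN-γ, 2 of 24 rose in distal H3K27ac in diabetic mice, which were the kinase Jak1 and the signalling inhibitor Socs1, from 28.8 ± 16.1 to 83.7 ± 9.27 (SD, n = 5 and 6, limma adjusted p = 0.0133) for Socs1, beside 0.943% of all genes. The exact permutation test called 0 of 18548 genes there (smallest adjusted p = 0.139), so it made neither call. No gene of the list was called in any other stimulation comparison, nor between diabetic and control mice.

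Over the 35 H3K27ac lists the promoter percentile of Tgm2 ran most like those of Pla2g3 (Spearman rho 0.839), C9orf72 (0.818) and Tpm1 (0.809). Il4ra ran most like F830045P16Rik (0.805), AI413582 (0.796) and Ralgds (0.795), and Arg2 most like Lat2 (0.799), Gm14295 (0.797) and Tnfsf15 (0.795). The lectin genes followed, Mgl2 with Gimap6 (0.798), Evi2b (0.767) and Zfp27 (0.751), Mrc1 with Zc3h12d (0.74), Oas1g (0.739) and Ebi3 (0.737), and Clec10a with Gm49322 (0.666), Padi2 (0.596) and Rexo4 (0.574). For Arg1 they were Cd74 (0.728), Adam3 (0.689) and Cxcr3 (0.671). These are descriptions over lists that share cell state and length, and were picked as the highest among all genes with a peak in at least 10 lists.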

How the data were processed

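The data were 70 peak lists, 1 per library, from ChIP-seq of 2 histone marks with 50-bp single reads. The submitters' processing notes name Trim Galore 0.3.3, cutadapt 1.8, FastQC 0.11.3, Bowtie2 2.2.6, Picard 2.18.14 and 2.19.2, bedtools 2.19.1 and MACS2 2.2.7.1 on GRCm38 (mm10). The authors deposited for each peak a score, a fold ratio, −log10 p and −log10 q, and no counts, so depth is unknown and list length stands beside the results. The 36 input samples were not used here as libraries of their own.

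Here each numbered interval was read as 1 peak by its highest −log10 p (column 8). Genes and start sites came from GENCODE M21. A gene was tested where at least 3 libraries of a comparison held a peak, with limma 3.58.1 in R 4.3.3 (eBayes with trend, no covariate) over all genes, and called at an adjusted p under 0.05 (Benjamini-Hochberg). The test was checked on simulated data for diabetic against control HSCs. Every gene tested there had a value in every list, so the check did not cover peaks missing from some lists. In all 21 comparisons of groups an exact 2-sided permutation test was run as an alternative. Other alternatives were rank on fold, the top 10000 peaks, promoters of 500 bases to either side, a flank of 10000 bases, a peak in at least 1 library, a middle rank for genes with no peak, list length as a covariate, a replicate block, 1 fit over all 6 groups, and leaving out libraries. Sites are the positions held by most lists, at least 1000 bp apart and held by at least 8 of 35 lists. All 10 genes are named. For the 7 with an H3K27ac promoter peak in at least 10 lists, the 3 genes most like each are named (genes within 40 kb left out). The rule for pathway genes, a call in at least 2 stimulation comparisons, named none, and those named were chosen after their values were seen. The genes, lists and doubted libraries were chosen with earlier results of these data known.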

Additional observations from a re-analysis of the deposited data

Results flagged for a closer look

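In each group of 5 or 6 lists, the list at either end was compared with the others by Dixon's test. It stood apart in 28 of 141 groups, where chance gives about 1 in 20, or 7.05. Most of these are a peak missing from 1 list or present in 1 list, which moves a percentile between 0 and its usual level.

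A single list without the peak, at 0 where the others held it, was found for promoter H3K27ac of Arg1 in diabetic HSC replicate 6, control LPS+IFN-γ replicate 3, diabetic LPS+IFN-γ replicate 4 and diabetic unstimulated replicate 6. The same held for Mrc1 in control unstimulated replicate 4, Mgl2 in control HSC replicate 1, and Clec10a in diabetic HSC replicate 4 and control unstimulated replicate 5. For H3K4me3 it was Clec10a in control LPS+IFN-γ replicate 4, diabetic LPS+IFN-γ replicate 5 and diabetic unstimulated replicate 6, and Il4ra in diabetic HSC replicate 6, whose list is the shortest. Distal H3K27ac of Arg1 was at 0 in control unstimulated replicate 4.

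A single list with a peak was found for promoter H3K27ac of Pdcd1lg2, at 43.8 in control HSC replicate 4, 43.3 in diabetic HSC replicate 4 and 27.7 in diabetic unstimulated replicate 2. For H3K4me3 Pdcd1lg2 read 30.1 in control HSC replicate 1, 27.3 in diabetic LPS+IFN-γ replicate 1 and 28.1 in diabetic unstimulated replicate 2. Clec10a H3K4me3 read 28.6 in control HSC replicate 1 and Mrc1 H3K4me3 33.5 in control LPS+IFN-γ replicate 1. Distal Chil3 read 37.4 in diabetic HSC replicate 2.

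Other lists held the peak at an unusual rank. Tgm2 H3K4me3 was at 88.6 in control LPS+IFN-γ replicate 3 and 94.2 in control unstimulated replicate 3, above the rest of each group. Distal Tgm2 was at 75.9 in diabetic LPS+IFN-γ replicate 6 and 80.5 in diabetic unstimulated replicate 5, distal Il4ra at 61.1 in diabetic unstimulated replicate 5, and distal Arg1 at 37.7 in control LPS+IFN-γ replicate 5, each below its group.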

How the results depend on the processing

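The counts of genes called in the disease comparisons and in the differences of effects stayed at 0 under every alternative run. Of all recomputed counts, 345 of 386 stayed within 1.5 times the reported count. These include the counts that stayed at 0, and comparisons that a setting did not touch kept their reported value. Of 147 refits of the called genes, 86 kept the call and 61 lost it. No difference of a called gene changed direction. For stimulation at promoters the count went from 0 to 1 with 1 fit over all 6 groups (Arg2 H3K27ac, diabetic). For cell state at promoters it went from 4 to 2 by the exact permutation test, with rank on fold, with the top 10000 peaks and without the 3 doubted control libraries. For distal stimulation it went from 1 to 0 by the exact permutation test, with a flank of 10000 bases, 1 fit over all groups, a peak in at least 1 library, rank on fold, the replicate block and the top 10000 peaks, and ranged from 0 to 1 when single libraries were left out. For distal cell state it went from 2 to 0 by the exact permutation test and with the top 10000 peaks, and to 1 with a flank of 10000 bases, list length as a covariate, 1 fit over all groups, rank on fold, the replicate block or without the 3 doubted libraries, and ranged from 1 to 3 when single libraries were left out, with Retnla joining (limma adjusted p = 0.0342) without diabetic unstimulated replicate 4. With rank on fold and with 1 fit the single call was Mrc1, and both Arg2 calls were lost. Mrc1 distal H3K27ac in diabetic mice was called with 1 fit over all groups (limma adjusted p = 0.00638), rank on fold (0.0427), a shared middle rank (0.0446) and without diabetic HSC replicates 1 (0.0378) or 2 (0.032). Retnla distal was called also without diabetic unstimulated replicate 1 (limma adjusted p = 0.0475), and Clec10a H3K4me3 in diabetic mice with 1 fit (limma adjusted p = 0.0419). Tgm2 was called in 10 of 10 settings and Il4ra in 9 of 10 (rank on fold, limma adjusted p = 0.0627), and both in 12 of 12 fits that left out a library. Beyond the cases of fewer samples or tested peaks, the cause was not tested.

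With the replicate block, the distal stimulation difference of Pdcd1lg2 was 13.1 (limma adjusted p = 0.198), and Arg2 distal in diabetic mice (limma adjusted p = 0.106) and Mgl2 (limma adjusted p = 0.051) were not called. Il4ra, Tgm2, Clec10a and Arg2 distal in control mice remained called with it. Pairing by replicate number was not settled. Correlations of same-numbered deviations ran from -0.248 to 0.364. In no comparison did every pair pass 0.1 or every sample run best with its own number. Stimulation came nearest. In H3K27ac 3 of 6 control and 4 of 5 diabetic samples ran best with their own number, and in H3K4me3 3 of 6 and 2 of 5. In H3K4me3 4 of 5 diabetic pairs passed 0.1. In no other comparison did more than 2 samples run best with their own number. Whether same-numbered unstimulated and LPS+IFN-γ BMDMs share a source was not tested. These losses are therefore neither described as weaker effects nor set aside. Ranks within a list do not show read depth, and a peak missing from a list may lie under that list's own calling limit.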
